A study of Mus musculus with 2 samples.

Results

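The genes described here are 10 immediate early and AP-1 genes: Fos, Fosb, Fosl2, Jun, Junb, Jund, Atf3, Egr1, Ier3 and Myc. They were taken by symbol, with older synonyms accepted, from the platform annotation, which named 16390 genes in all. A probe was named for 9 of the 10, 1 probe each. None was named here for Jund, so Jund has no ratio and enters the promoter counts only. A ratio was given for 9 genes at day 1 and for 8 at day 3, where Fosl2 had none.

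The samples were stromal cells of the bone marrow from C57BL/6 mice that had received 9.5 Gy of total body irradiation 1 day or 3 days earlier, set against the same kind of cells from mice that were not irradiated. Each time point had 1 two-channel oligonucleotide array, with the irradiated RNA in Cy3 and the unirradiated RNA in Cy5 and with no dye swap. The series names 6 mice. Their division among the groups, any pooling and the isolation of the stroma are not given in the sources at hand. No second array of either time was used, which leaves the ratios without a replicate error or a p-value, and each is described by its size. The values are ratios, so they give no expression level in either group, and the markers could not show how pure the stromal cells were. Of 16 mesenchymal stromal markers, all had a named probe, 14 had a ratio at day 1 and 13 at day 3.

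Immediate early genes are transcribed within minutes of a stimulus without new protein synthesis, and most of their transcripts are short-lived. The Fos and Jun proteins pair through leucine zippers to form AP-1, which binds DNA at the TGACTCA and TGACGTCA kinds of site, and Atf3 is a stress-induced relative that pairs with Jun. Egr1 is a zinc finger factor, Ier3 is a regulator of cell survival downstream of NF-kB, and Myc drives ribosome production and growth. Ionising radiation is known to induce Egr1, Jun, Fos and Atf3 early after exposure, and the arrays sampled later times.

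The sources used here do not state which channel is the numerator. A positive ratio was taken to mean more transcript in irradiated cells, because targets of p53, which radiation induces, had a median log2 ratio of 1.52 at day 1 and 1.27 at day 3, while mitotic genes had 0.79 and -3.20. That direction is likely and not established, and if it were the reverse, every "higher" and "lower" would be exchanged. The p53 and mitotic lists are therefore no independent evidence of their own direction. All ratios are on the log2 scale, assuming base 2, with the median over all genes of an array set to 0. Counts use a limit of 2-fold, that is a log2 ratio of 1 or more upward or the mirrored value downward.

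The upstream sequence of 5 of these genes is shown. Fos, Junb, Atf3 and Jun are shown because AP-1 and related factors are known to bind letters of the kind marked in them. At day 1 these genes lay on both sides of 0. Ier3 had no such letters in its promoter and is shown with a site of another kind. The windows are from RefSeq (GRCm38.p6), end before the annotated transcription start and run 5′ to 3′ on the gene's own strand. Capitals mark TGACG, the core of the cAMP response element, in Fos and Junb, the same core on the opposite strand (CGTCA) in Atf3, TGACNTCA in Jun and GGGCGG, the Sp1 site, in Ier3.
Fos, chr12:85473794-85473858, plus strand: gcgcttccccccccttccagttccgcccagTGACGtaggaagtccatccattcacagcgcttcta
Junb, chr8:84978820-84978884, minus strand: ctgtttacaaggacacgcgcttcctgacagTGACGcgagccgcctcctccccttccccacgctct
Atf3, chr1:191183334-191183370, minus strand: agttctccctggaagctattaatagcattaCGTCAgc
Jun, chr4:95052230-95052297, minus strand: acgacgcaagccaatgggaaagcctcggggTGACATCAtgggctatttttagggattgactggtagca
Ier3, chr17:35821587-35821652, plus strand: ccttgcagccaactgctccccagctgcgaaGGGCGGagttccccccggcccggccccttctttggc

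Promoters of 300 bases, 250 before to 50 after the start, were used for 8 of the 10 genes, and both strands were searched. No promoter of Egr1 or Myc was used, so the sites found or absent here say nothing of those genes. For Fosb the start used by that promoter set lies inside the annotated gene, so its sequence is not shown. TGACG was present in 4 of the 8 (Fos, Fosb, Junb and Atf3), against 20.8% of all 32851 promoters of the same length. In Fos it occurred at 2 places, 66 and 129 bases before the start. TGACNTCA, which holds TGACG where N is G, was present in Jun alone, against 8.83% of all promoters, and GGGCGG in 6 of the 8, against 35.7%. None of the 8 held TGACGTCA (1.79% of all promoters), TGACTCA or TGAGTCA (5.2%), the CArG box of serum response factor (1.63%) or CACGTG, the Myc and Max site (7.15%), in this window. TATAAA was found in Fos, 33 bases before the start, and in Junb, where it begins at the start itself and is not upstream, against 13.6%. The 4 genes with TGACG had log2 ratios of 0.16 (Fos), -0.66 (Fosb), 0.79 (Junb) and -0.79 (Atf3) at day 1.

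At 1 day after irradiation no immediate early or AP-1 gene with a ratio differed 2-fold or more from unirradiated cells. None of the 9 was at least 2-fold higher, where 19.6% of the 10434 genes on this array were, and none was at least 2-fold lower, where 11.1% were. The 9 values ran from -0.90 to 0.99 with a median of -0.12, and 4 were above and 5 below 0. The sign of that median depended on the centring, at 0.07 with the density peak of all genes at 0 and 0.39 with ribosomal protein genes at 0. Their median size without sign, 0.66, was close to the 0.64 of all genes on the array.

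At 3 days after irradiation Ier3 was the 1 gene past 2-fold, and 6 of the 8 genes lay closer to 0 than at day 1, all but Fos and Ier3. Of 8 genes, 1 was at least 2-fold higher, against 7.35% of all 11404 genes, and 0 were at least 2-fold lower, against 6.85%. The values ran from -0.30 to 1.04 with a median of 0.27, and 6 were above and 2 below 0. The median size without sign was 0.30, against 0.41 for all genes. The whole array also lay closer to 0 than at day 1, where the median size of all genes was 0.64. Of all genes, 85.8% were within 2-fold at day 3 and 69.3% at day 1, so the narrowing is not particular to these genes. The plot of the members by day shows Ier3 on the right at both times and the squares of day 3 in a narrower band than the circles of day 1.

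**Figure D1:**
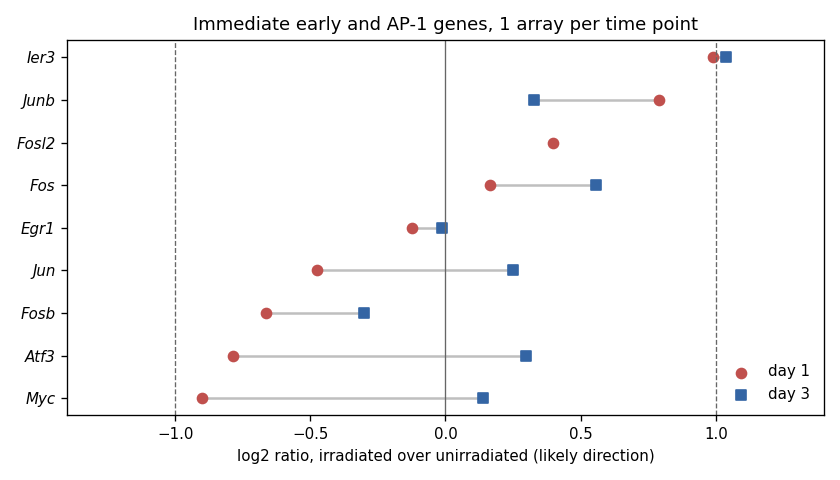
Log2 ratio of irradiated over unirradiated stromal cells (x axis, likely direction) for the 9 genes with a ratio, ordered by day 1, with day 1 as circles and day 3 as squares (1 array each, so no error bars) and dashed lines at 2-fold. Ier3 lies at 0.99 and 1.04, and the other genes lie between -0.90 and 0.79 at both times.

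Among the Fos genes, whose proteins need a Jun partner to bind DNA firmly, no ratio reached 2-fold. Fos had a log2 ratio of 0.16 at day 1 and 0.56 at day 3, or 1.12-fold and 1.47-fold higher. Fosb had -0.66 at day 1 and -0.30 at day 3, below 0 on both arrays. Fosl2, which codes for Fra-2, had 0.40 at day 1. Fos stood at the 81.1st percentile of all genes at day 3, while Fosb stood at the 30.6th, so these close relatives lay on opposite sides of the array median.

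The Jun genes, whose proteins can pair with each other or with Fos proteins, also stayed within 2-fold. Jun had a log2 ratio of -0.47 at day 1 and 0.25 at day 3. Junb, which can oppose Jun at some genes, had 0.79 at day 1 (1.73-fold) and 0.33 at day 3. At day 1 Junb was above and Jun below the array median, and at day 3 both were above it. Atf3, the stress-induced partner of Jun, had -0.79 at day 1 and 0.30 at day 3.

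Ier3 had the highest ratio of the set on both arrays, 0.99 at day 1 and 1.04 at day 3, or 1.99-fold and 2.05-fold. It was just under the 2-fold limit at day 1 and just past it at day 3, and the values differ by 0.05. Its percentile among all genes was 80.2 at day 1 and 93.2 at day 3. The next gene below Ier3 was Junb at day 1 and Fos at day 3. With the density peak of all genes at 0, Ier3 stood at 1.18 at day 1, with the median of genes on both arrays at 0 it stood at 1.05, and with ribosomal protein genes at 0 it stood at 1.501.

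Egr1 was close to level on both arrays, at -0.12 at day 1 and -0.01 at day 3, or 0.0036 at day 3 without the re-centring. Myc had the lowest ratio of the set at day 1, -0.90 or 1.87-fold lower, and 0.14 at day 3. The order at day 1 ran from Ier3 through Junb, Fosl2, Fos, Egr1, Jun, Fosb and Atf3 to Myc, and at day 3 from Ier3 through Fos, Junb, Atf3, Jun, Myc and Egr1 to Fosb.

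Genes with several probes give the only measure of spread on these arrays, a pooled SD between their probes of 0.76 (85 genes) at day 1 and of 0.58 (116 genes) at day 3. Variation from mouse to mouse, or from one hybridisation to the next, is not part of it. At day 1, Ier3, Junb, Atf3 and Myc were farther from 0 than 1 such SD, and at day 3 Ier3 alone was. No neighbours in the order of either array differed by more than this SD, while Ier3 and Myc at day 1 did.

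**Figure D2:**
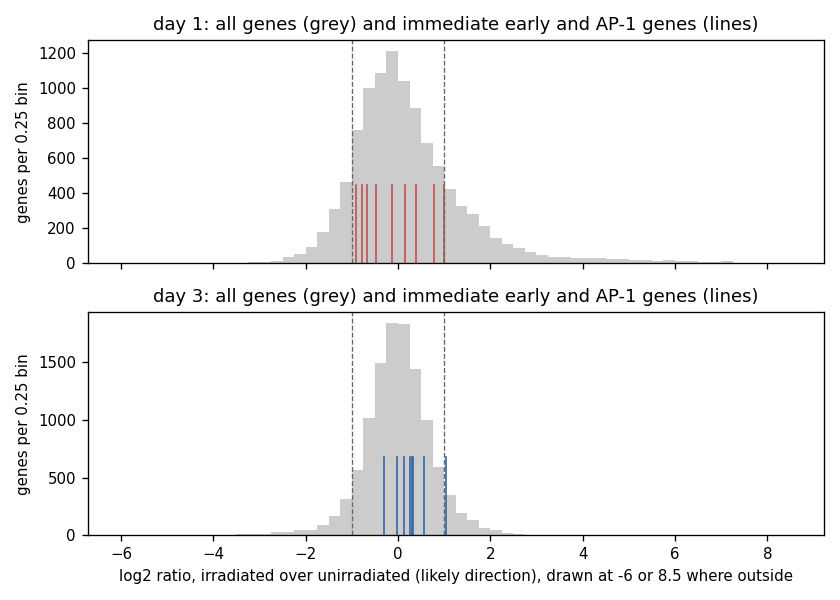
Histograms of the log2 ratio of all genes (grey, genes per 0.25 bin on the y axis) at day 1 (top) and day 3 (bottom), with each immediate early or AP-1 gene as a coloured line and dashed lines at 2-fold. The lines fall in the body of both distributions, and none lies in the long upper tail that day 1 shows.

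Between the times, 7 of 8 genes had a higher ratio at day 3 than at day 1, beside 4699 of all 9800 genes on both arrays. When the density peak of each array was set to 0, 5 of 8 did, and the count over all genes was not made there. The day 3 minus day 1 difference was 1.08 for Atf3 and 1.04 for Myc, the 2 of 8 genes past 2-fold, where 12.1% of 9800 genes were at least 2-fold higher in this difference. It was 0.72 for Jun, 0.39 for Fos, 0.36 for Fosb, 0.11 for Egr1 and 0.05 for Ier3, and Junb alone was lower, at -0.46. None was at least 2-fold lower, against 16.8% of all genes. The median difference was 0.38, against -0.04 over all genes. With the density peaks at 0 the medians were 0.19 and -0.23, Atf3 was at 0.89 and Myc at 0.85, and neither passed 2-fold. As reported, the median difference was also above 0 for endothelial (1.27), adipocyte (1.06), mesenchymal stromal (1.03), osteoblast (0.64) and erythroid (0.21) markers. It was below 0 for macrophage (-1.15), B cell (-1.23), pan-leukocyte (-5.56) and granulocyte (-7.75) markers. The part of cell composition in the differences of the members was not tested. The unirradiated RNA of the arrays may have been shared, and the difference carries the error of both.

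Relatives and partners of the AP-1 proteins ran from -2.33 to 5.31 at day 1, against -0.90 to 0.99 for the members. Their median was 0.92 at day 1, where 6 of 13 passed 2-fold upward and 2 downward, beside 19.6% and 11.1% of all genes. It was 0.34 at day 3, where 1 of 13 passed it upward and 2 downward, beside 7.35% and 6.85%. With ribosomal protein genes at 0, 6 passed it upward and 1 downward at day 3, beside 22.5% and 2.48% of all genes. Fosl1, which codes for Fra-1 and completes the Fos family, had a log2 ratio of 5.31 at day 1 (39.6-fold) and 0.49 at day 3. Among the members no Fos or Jun gene passed 2-fold on either array, except that with ribosomal protein genes at 0 Junb did at day 1 (1.30) and Fos at day 3 (1.08). Crem, a cAMP-responsive factor, had 3.15 at day 1 and no ratio at day 3, and the small Maf gene Mafg had 2.21 and 0.78. Batf3, a factor of dendritic cells that pairs with Jun proteins, was lower on both arrays, at -2.33 and -2.15. Atf5 was at -1.03 and -1.01, and Batf had 0.46 and -0.83.

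Other immediate early genes included many with higher ratios at day 1. Their median was 0.77, and 18 of 38 (47.4%) passed 2-fold upward and 1 downward, beside 19.6% and 11.1% of all genes. At day 3 the median was 0.57, and 5 of 39 passed it upward and 0 downward, beside 7.35% and 6.85% of all genes. With ribosomal protein genes at 0 the day 3 count upward was 24 of 39, beside 22.5% of all genes. The median was then 1.10, beside 0.53 over all genes. The highest by the mean of the arrays were Ptgs2, the inducible prostaglandin synthase, at 5.05 and 0.63, Gadd45a, a growth arrest gene, at 4.02 and 0.78, and the polo-like kinase gene Plk3 at 3.33 and 1.69. The phosphatase gene Dusp1 had 1.45 and 0.42, the nuclear receptor gene Nr4a1 1.55 and 0.65, and Btg2, which is also a p53 target, 1.87 and 0.64. Btg2 and Plk2 were on both this list and the p53 list that set the direction, so their sign is no independent evidence.

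Egr2, a zinc finger relative of Egr1, had 0.19 at day 1 and 0.26 at day 3, and Ier2 had 0.16 and 0.06. Zfp36, which speeds the decay of cytokine messages, had 0.54 and 0.64. At the low end were Zfp36l2 at -1.90 and -0.52, Klf10 at -0.58 and -0.16 and Id2 at -0.49 and -0.13. Egr3 had no ratio on either array.

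**Figure D3:**
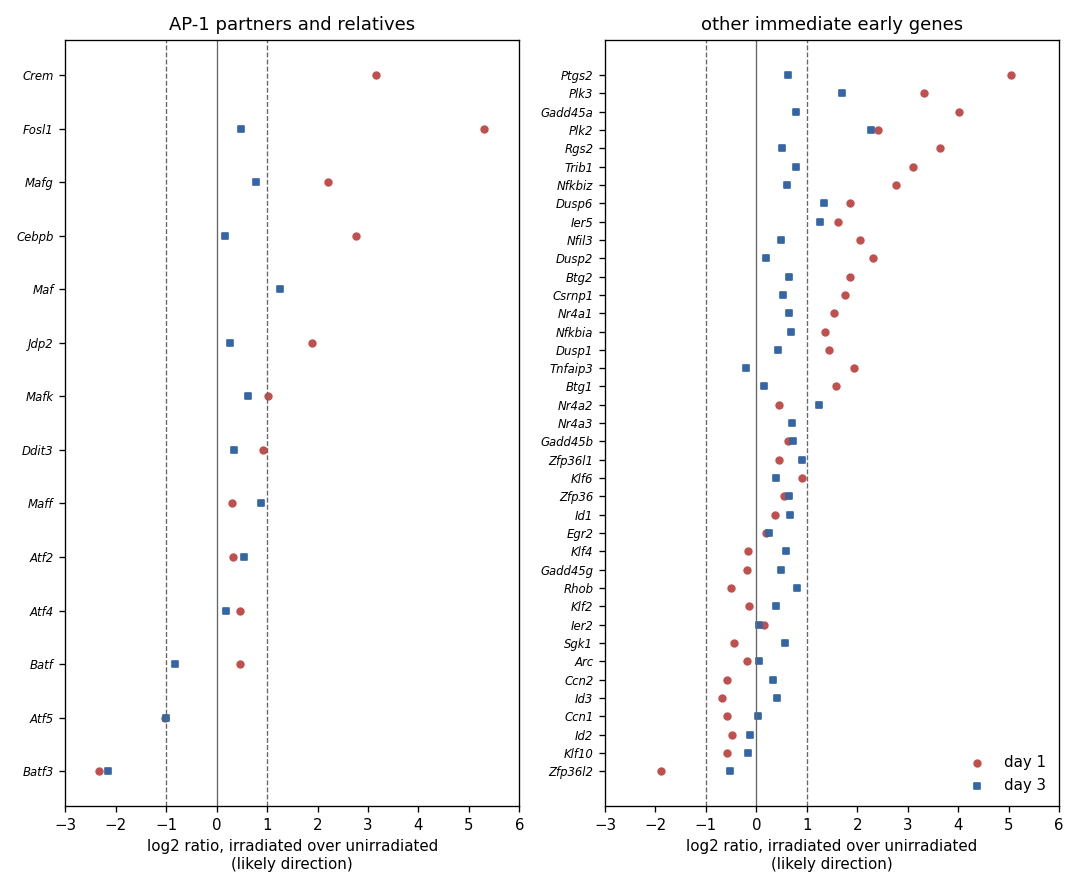
Log2 ratio of irradiated over unirradiated cells (x axis, likely direction) at day 1 (circles) and day 3 (squares) for AP-1 partners and relatives (left) and other immediate early genes (right), with dashed lines at 2-fold and 1 array per time. Fosl1 at 5.31 and Ptgs2 at 5.05 are the points farthest right, and most squares lie between the dashed lines.

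These day 1 values stand on an array where blood cell genes were far from level. The 16 pan-leukocyte markers with a ratio all passed 2-fold upward, from 2.22 to 8.17 (median 5.07), as did all 18 granulocyte markers (median 6.03). Of 9 erythroid markers, 8 passed 2-fold downward (median -3.18). Over all genes on that array, 19.6% passed 2-fold upward and 11.1% downward. At day 3 the pan-leukocyte markers had a median of -0.24, the granulocyte markers -1.36 and the erythroid markers -1.79. Of 11 pan-leukocyte markers, 0 were past 2-fold upward and 3 downward, beside 7.35% and 6.85% of all genes. With ribosomal protein genes at 0 the pan-leukocyte median at day 3 changed sign, to 0.29. The counts were then 4 upward and 1 downward, beside 22.5% and 2.48% of all genes. In a mixed sample, fewer cells of a type and less RNA per cell cannot be told apart, and the part of blood cells in the ratios of Fosl1, Ptgs2 or any member was not tested.

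Of the kinases and factors that act upstream of immediate early genes, 11 of 23 passed 2-fold upward at day 1 and 0 downward (median 0.79), beside 19.6% and 11.1% of all genes. At day 3, 2 of 22 passed it upward and 1, Mapkapk2, downward at -1.38 (median 0.0027), beside 7.35% and 6.85%. The day 3 counts were 3 and 0 with ribosomal protein genes at 0, beside 22.5% and 2.48% of all genes. Mrtfa, a coactivator of serum response factor, had a log2 ratio of 3.02 at day 1 and -0.11 at day 3, the p38 gene Mapk14 had 2.07 and 0.16, and Map3k8 had 1.70 and 1.10. The Jun kinase genes Mapk8 (-0.83 and -0.58) and Mapk9 (-0.20 and -0.13) and the ERK kinase gene Map2k2 (-0.46 and -0.74) were the lowest by the mean of both arrays. Mapkapk2 was named for being the 1 gene past the limit, after its value was seen.

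Myc had a lower ratio than each of the 9 other network genes with a ratio at day 1. Of these 9, 5 passed 2-fold upward at day 1 and 0 downward (median 1.07), beside 19.6% and 11.1% of all genes. At day 3 none passed it either way (median 0.27), beside 7.35% and 6.85%. With ribosomal protein genes at 0, 4 passed it upward at day 3, beside 22.5% of all genes. Mxd1, which competes with Myc for its partner Max, had 5.26 at day 1 and 0.27 at day 3. Max itself had 1.66 and 0.01, Mycn 1.43 and 0.64, and Mlxip 1.07 and 0.75. Mga (-0.61 and 0.05), Mxd4 (-0.44 and 0.66) and Mlx (0.85 and -0.05) lay within 2-fold.

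Known Myc targets in ribosome assembly and growth had medians below 0 on both arrays. Their median was -0.78 at day 1, where 6 of 24 passed 2-fold downward and 0 upward, beside 11.1% and 19.6% of all genes. It was -0.64 at day 3, where 9 of 26 passed it downward and 1 upward, beside 6.85% and 7.35%. The day 1 count downward was 2 with the density peak at 0, beside 7.43% of all genes. When ribosomal protein genes were set to 0 the medians were -0.27 and -0.11, beside 0.51 and 0.53 over all genes. In that setting 0 genes at day 1 and 1 at day 3 passed 2-fold downward, beside 3.57% and 2.48% of all genes. Nme1 had -1.14 and -1.94, the nucleolar methyltransferase gene Fbl -0.99 and -1.52, and the pseudouridine synthase gene Dkc1 -1.43 and -1.04. Ccnd2, a G1 cyclin, was the 1 gene higher, at 0.67 and 1.07, and Ldha had 0.32 and -0.12. Myc itself had -0.90 at day 1 and 0.14 at day 3, so the median of its targets was below 0 at day 3 while Myc was above it.

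Known AP-1 targets went both ways at day 1. Of 16, 8 passed 2-fold upward and 3 downward (median 0.70), beside 19.6% and 11.1% of all genes. At day 3, 5 of 16 passed it upward and 0 downward (median 0.54), beside 7.35% and 6.85%. With ribosomal protein genes at 0, 8 passed it upward at day 3, beside 22.5% of all genes. Il1b had 7.36 and 0.68, the urokinase receptor gene Plaur 5.59 and 0.67, and Mmp9, which is also a granulocyte marker, 5.66 and 1.99. The stromelysin gene Mmp3 (-2.05 and 0.01), Timp1 (-1.65 and -0.73) and Nqo1 (-1.26 and -0.44) were the lowest by the mean of both arrays. Il1b, Plaur and Mmp9 were high on the array with the pan-leukocyte median of 5.07, and the part of blood cells in them was not tested.

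**Figure D4:**
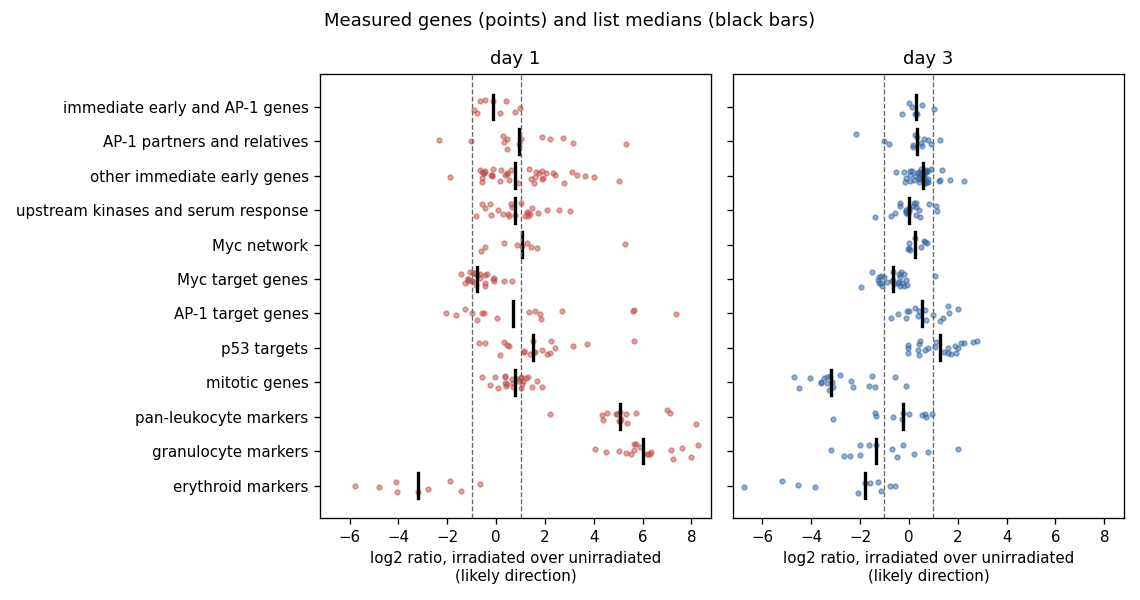
Log2 ratio of irradiated over unirradiated cells (x axis, likely direction) for every measured gene of 12 lists (points) with the list median (black bar), at day 1 (left) and day 3 (right), and dashed lines at 2-fold. The immediate early and AP-1 genes lie within the dashed lines at day 1, while the pan-leukocyte (median 5.07) and granulocyte (6.03) markers lie to the right.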

How the data were processed

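The authors deposited 1 log ratio for each probe and array, read here as log2. Per the labels, RNA was amplified as amino allyl RNA and coupled to the dyes. Logarithm base, scanner, background correction, normalisation and the filter behind empty entries are not given in the sources at hand. No ratio was given for 40.5% of 23473 probes at day 1 and 34.3% at day 3. The platform annotation named 16631 probes, and symbols were updated through RefSeq (GRCm38.p6), with 3947 matched by an older name. Probes were averaged per gene and the gene median, -0.0119 at day 1 and 0.0162 at day 3, was subtracted, with Python 3.11.15 and pandas 2.3.3. The averaging and the size rule were tested on simulated data with planted effects well past 2-fold. The simulated noise was below the probe SD of these arrays, so that test does not cover values near the limit. The members and the 18 further lists were chosen with earlier results of these data known. Named genes were all members, the 3 highest and 3 lowest of each related list by the mean of available arrays, and a short fixed set. The number of arrays limits the precision. Cross-hybridisation between related genes was not assessed. Alternatives changed the centring, the probe rule, the gene names and the fold.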

Additional observations from a re-analysis of the deposited data

Results flagged for a closer look

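The members Jun, Atf3 and Myc lay on opposite sides of 0 at the 2 times. Jun had -0.4737 at day 1 and 0.2509 at day 3, Atf3 had -0.7856 and 0.2971, and Myc had -0.9005 and 0.1379 (log2 ratio). With 1 array per time, the difference between the times was not tested, and none of the 6 values reached 2-fold. With ribosomal protein genes at 0, Jun was above 0 at both times, at 0.04 and 0.78.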

How the results depend on the processing

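Each member has 1 probe and a current symbol, so the probe and name rules moved its value only through the centring. Each of the 7 alternatives thus moved all members of an array by the same amount, at most 0.51 at day 1 and 0.53 at day 3. These shifts are below the probe SD of 0.76 and 0.58, so all 119 member values had to stay within it. That is no evidence of stability. With ribosomal protein genes at 0, 2 members changed sign on each array. The 2-fold counts depended on the centring. At day 1 the members at least 2-fold higher were 0 as reported (19.6% of all genes) and 1 with the density peak at 0 (23.6%). They were 1 with the median of genes on both arrays at 0 (20.8%). With ribosomal protein genes at 0 they were 2 (31.8%), Ier3 at 1.501 and Junb at 1.30, and at 1.5-fold they were 2. Members lower at day 1, 0 as reported (11.1%), were 3 at 1.5-fold. At day 3 the members higher were 1 as reported (7.35%) and 0 at 4-fold. With ribosomal protein genes at 0 they were 2 (22.5%), Ier3 at 1.56 and Fos at 1.08. Shares of all genes were not counted at 1.5-fold or 4-fold. The count of 2 in the day 3 minus day 1 difference, whose alternatives were chosen after seeing the data as were those of the list medians, was 0 with the density peak at 0 (Atf3 at 0.89 and Myc at 0.85). With ribosomal protein genes at 0 the median of members was 0.39 at day 1, against -0.12 as reported, and 0.80 at day 3, against 0.27, since that setting moves the median of all genes to 0.51 at day 1 and 0.53 at day 3. All 8 members at day 3 were then above 0, and the share of all genes above 0 in that setting was not counted. Among all genes past 2-fold, the share of higher genes was then 89.9% at day 1 (63.9% as reported) and 90.1% at day 3 (51.8%). That setting gave 3322 genes higher and 373 lower at day 1, against 2047 and 1157, and 2566 and 283 at day 3, against 838 and 781. The density peak at 0 gave a higher share of 76.1% at day 1, a shift of 0.19, and a median of members of 0.07. The cause of these differences between centrings was not tested. No paired analysis was possible because each time point has 1 array. Intensities were not used here, so signal over background could not be examined.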

Other observations

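Commonly used reference genes were not level at day 1, which bears on how a member near 0 is read. Of 10, 4 were at least 2-fold higher and 0 lower, beside 19.6% and 11.1% of all genes. Gapdh was at 2.69, Actb at 1.64 and B2m at 1.36, while Hprt stood at -0.02, Sdha at -0.11 and Ppia at -0.76 (log2 ratio). At day 3 the same genes had a median of -0.11, with Ppia at -1.18 the 1 gene past 2-fold, beside 6.85% of all genes lower. With ribosomal protein genes at 0 that median was 0.42, beside 0.53 over all genes.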
